A study of Homo sapiens with 8 samples.

Results

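The genes described here are 10 members of the integrated stress response, in which ATF4 (activating transcription factor 4) is the central transcription factor: ATF4, ATF3, DDIT3, CEBPB, PPP1R15A, TRIB3, ASNS, CHAC1, SESN2 and DDIT4. They were chosen by name, with earlier results of these data known. Each was matched through the accession that the array design gives for each probe, and all 10 were found among 19052 genes tested. Expression was measured in A549 cells, an established epithelial line from a human lung carcinoma, on 8 one-colour Agilent arrays in 2 series. In one series the cells received vehicle or 1.25, 5 or 20 μg/mL of EEDS, an ethanol extract of the seeds of Descurainia sophia, and in the other vehicle or 3.75, 15 or 60 nM helveticoside, a cardiac glycoside found in those seeds. According to the labels, cells were grown for 24 h before treatment and kept for 48 h with the agent, whereas the methods give 24 h of exposure. All groups were the same unmodified line. The RNA on an array was a pool of 3 cultures, with 1 array for every dose, so no dose has a replicate and single doses carry no p-value. The doses of the agents are not matched, and agent and series cannot be told apart.

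On these arrays the software called 54.5% to 64.9% of the probes well above background, and the 8 arrays had a median probe signal of 182 to 278 over a local background of 27 to 34. All 5 epithelial markers (EPCAM, CDH1, KRT8, KRT18 and KRT19) and 4 genes that mark A549 cells (AKR1C1, AKR1B10, ALDH1A1 and NQO1) were well above background on every array. The median log2 ratio to vehicle was -0.78 at 20 μg/mL EEDS for the epithelial markers and -0.75 for the A549 genes, and -0.93 for the latter at 60 nM helveticoside, and whether this bears on the members was not tested. Of 6 markers of leukocytes, endothelium and fibroblasts, PTPRC was above background on every array, and COL3A1 was so at 15 nM helveticoside alone. The log2 of their summed signal was 7.06 to 8.05 on the other 7 arrays and 8.41 at 15 nM, where COL3A1 was at least 2.04-fold higher than on the vehicle control. The part of this difference in the results at 15 nM was not tested. In both series the scan position of the arrays moved one way with rising dose, from 10849 to 1401 in the EEDS series and from 10854 to 1406 in the helveticoside series, so position and dose cannot be told apart. In RNA from whole cultures, fewer cells with a transcript and less of it per cell cannot be told apart either.

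The integrated stress response begins when any of 4 kinases phosphorylates the initiation factor eIF2, which lowers protein synthesis in general while ATF4 mRNA is translated more. ATF4 then raises transcription of genes for amino acid supply and tRNA charging and of further transcription factors. Among these, ATF3 and DDIT3 (also called CHOP) carry the response forward, and PPP1R15A (GADD34) closes a negative feedback by guiding a phosphatase to eIF2. Arrays measure mRNA and so do not show the translational step that governs ATF4 protein.

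Many ATF4 target genes carry a C/EBP-ATF response element (CARE), a composite site for heterodimers of ATF4 and C/EBP factors. RefSeq windows (GRCh38.p14) from 250 bases before to 50 after a transcript's start were searched on both strands for this element written as TGATGNAAN, for the cAMP response element (CRE) TGACGTCA and for the AP-1 element TGANTCA. The windows of 3 of the 10 genes held a CARE (ATF3, CHAC1 and ASNS), against 4.45% of 27305 genes with a window. A CRE was found for PPP1R15A alone (2.25% of all genes) and an AP-1 element for DDIT3 alone (9.37% of all genes). No 2 of these matches lay in the same gene, so none overlapped. A match is a run of letters and not evidence of a bound site, and the remaining members may carry elements elsewhere or in other spellings. The 250 bases before the start are printed for these 5 genes, since they hold the match and since the expression of these 5 genes is described in detail, 5′ to 3′ on the gene's strand with the matched motif in capitals. ATF3 and ASNS each have 2 windows, of which 1 holds the CARE and is printed. In ATF3 it lies at -191 to -183 from that start, in ASNS at -68 to -60 and in CHAC1, which has 1 window, at -210 to -202 on the opposite strand. The CRE of PPP1R15A lies at -58 to -51. DDIT3 has 2 windows that both hold the AP-1 element. It lies at -241 to -235 from the start of the printed window and at -238 to -232 from the other start.
ATF3 promoter, chr1:212565157-212565406, + strand, CARE: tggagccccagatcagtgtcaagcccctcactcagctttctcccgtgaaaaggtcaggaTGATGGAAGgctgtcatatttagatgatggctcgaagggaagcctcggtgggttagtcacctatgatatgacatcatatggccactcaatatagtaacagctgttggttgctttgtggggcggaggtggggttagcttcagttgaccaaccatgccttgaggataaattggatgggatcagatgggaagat
CHAC1 promoter, chr15:40953221-40953470, + strand, CARE: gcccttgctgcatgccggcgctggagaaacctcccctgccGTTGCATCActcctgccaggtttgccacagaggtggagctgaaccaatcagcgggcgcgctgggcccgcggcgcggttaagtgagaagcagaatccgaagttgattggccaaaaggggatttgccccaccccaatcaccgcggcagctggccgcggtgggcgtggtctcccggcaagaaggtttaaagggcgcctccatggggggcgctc
ASNS promoter, chr7:97872409-97872658, - strand, CARE: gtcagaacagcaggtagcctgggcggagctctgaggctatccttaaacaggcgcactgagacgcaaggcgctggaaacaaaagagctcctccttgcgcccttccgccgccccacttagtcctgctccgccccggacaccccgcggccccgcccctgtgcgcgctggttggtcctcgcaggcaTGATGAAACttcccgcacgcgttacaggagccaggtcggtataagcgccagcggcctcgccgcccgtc
PPP1R15A promoter, chr19:48872171-48872420, + strand, CRE: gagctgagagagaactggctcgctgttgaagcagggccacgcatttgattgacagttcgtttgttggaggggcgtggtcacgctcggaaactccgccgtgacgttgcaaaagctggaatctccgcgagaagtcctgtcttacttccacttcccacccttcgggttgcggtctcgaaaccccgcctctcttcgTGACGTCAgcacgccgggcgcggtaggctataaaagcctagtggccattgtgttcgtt
DDIT3 promoter, chr12:57520515-57520764, - strand, AP-1: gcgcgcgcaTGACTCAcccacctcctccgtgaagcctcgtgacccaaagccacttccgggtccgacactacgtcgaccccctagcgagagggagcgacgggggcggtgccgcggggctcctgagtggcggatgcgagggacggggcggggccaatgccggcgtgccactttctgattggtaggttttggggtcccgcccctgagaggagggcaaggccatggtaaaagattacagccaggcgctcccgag

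Most of the 10 genes were higher under both agents. Since they were chosen with earlier results of these data known, their counts beside those of all genes are a description only. At 5 μg/mL EEDS, 7 of 10 were over 2-fold higher than on the vehicle control of the series, against 7.35% of all genes, and at 15 nM helveticoside 7 of 10 were, against 7.09%. At 1.25 μg/mL the number was again 7 (4.2% of all genes), at 20 μg/mL it was 6 (13.3%) and at 60 nM it was 7 (10.8%). The 6 include ATF4, whose log2 ratio ran from 0.87 to 1.19 over the alternatives in the processing. The 7 at 60 nM include TRIB3, with 0.84 to 1.89, so either gene can fall below 2-fold. At 3.75 nM none of the 9 genes with a value there was over 2-fold higher (3.37% of all genes). The median log2 ratio of the members was 1.35, 2.40 and 1.90 at the rising doses of EEDS and 0.41, 2.37 and 2.64 at those of helveticoside, where that of all genes was 0.01, 0.01 and 0.02 and 0.01, -0.04 and 0.00. The single member over 2-fold lower at any dose was DDIT4, at the top dose of each agent (14.5% and 12.8% of all genes were over 2-fold lower there), and 0 members were at the other doses (3.66% and 8.46% of all genes under EEDS and 4.31% and 8.05% under helveticoside). The 2 controls of the series set the scale for these ratios. Between them the members differed by a log2 value of -1.07 (SESN2) to 0.13 (DDIT4) and 3 members by more than 0.5, whereas the SD of this difference over all genes was 0.65.

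**Figure D1:**
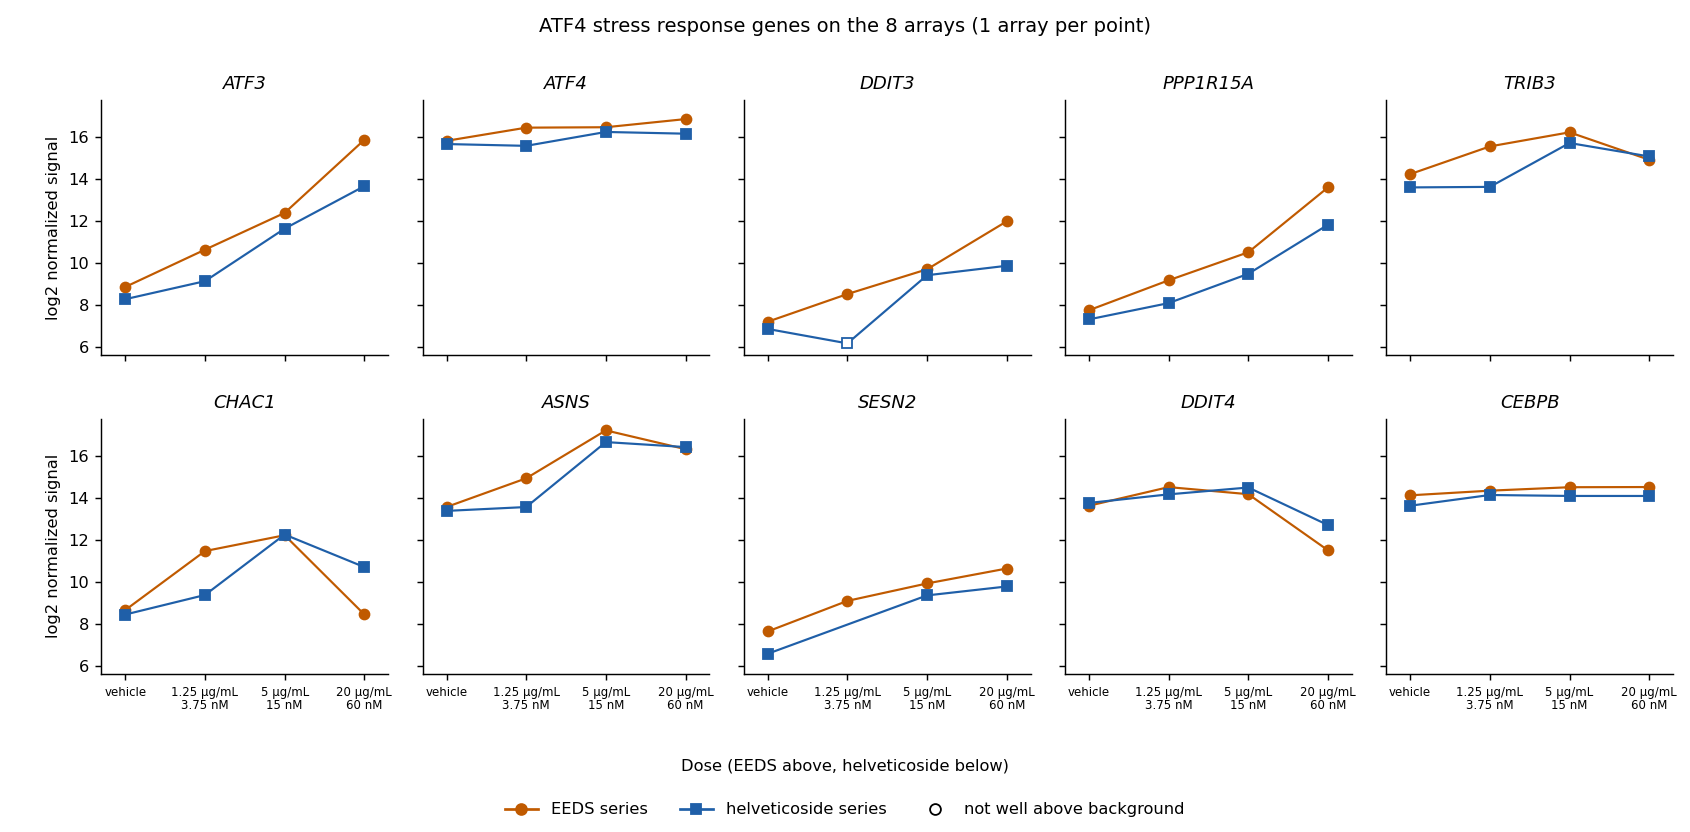
Log2 normalized signal (vertical axis) of each of the 10 genes on the 4 arrays of the EEDS series (circles) and of the helveticoside series (squares), by dose (horizontal axis). Each point is 1 array, so there are no error bars, and open symbols are not well above background. ATF3, PPP1R15A, DDIT3 and SESN2 were highest at the top dose of each agent, whereas CHAC1, TRIB3 and ASNS were highest at the middle dose.

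Among the transcription factors, ATF3 changed most. ATF3 is an immediate stress-responsive factor that dimerizes with other bZIP proteins. On its brightest probe the log2 signal went from 8.86 with vehicle to 10.64, 12.39 and 15.88 with 1.25, 5 and 20 μg/mL EEDS. With helveticoside it went from 8.27 with vehicle to 9.13, 11.64 and 13.67 with 3.75, 15 and 60 nM. Each dose of each agent lay above the dose before it. The fold over the control was 3.43, 11.6 and 130 at the rising doses of EEDS, and 1.82, 10.3 and 42.1 at those of helveticoside. Among all genes ranked by this ratio, ATF3 stood at place 4 at 20 μg/mL and at place 8 at 60 nM.

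DDIT3, a C/EBP relative that takes part in stress-induced cell death, had a log2 signal of 7.20 with vehicle and 8.52, 9.70 and 11.99 at the rising doses of EEDS. Its helveticoside values were 6.85 with vehicle, 6.16 at 3.75 nM, 9.42 at 15 nM and 9.87 at 60 nM. At 3.75 nM the gene was not well above background, and in the main processing it was at least 1.61-fold lower there than with vehicle. Its log2 ratio at this dose ran from -1.04 to -0.23 over the alternatives in the processing. Its fold was 2.50, 5.66 and 27.7 at the rising doses of EEDS and 5.92 and 8.10 at 15 and 60 nM. The order of the DDIT3 levels followed the dose in the EEDS series, and in the helveticoside series the 2 upper doses lay above the 2 lower arrays.

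The ATF4 transcript itself was well above background on every array, and its ratios were smaller than those of ATF3 at every dose. Its log2 signal was 15.83, 16.46, 16.48 and 16.87 from vehicle to 20 μg/mL EEDS, and 15.68, 15.59, 16.26 and 16.17 from vehicle to 60 nM helveticoside. The log2 ratios were 0.63, 0.65 and 1.04 under EEDS and -0.09, 0.58 and 0.49 under helveticoside. The value at 3.75 nM had no stable direction, as it ran from -0.24 to 0.16 over the 8 alternatives in the processing. CEBPB, a C/EBP factor that pairs with ATF4, was less than 2-fold from its control at every dose. Its log2 signal was 14.14, 14.36, 14.52 and 14.53 in the EEDS series and 13.64, 14.15, 14.11 and 14.10 in the helveticoside series. Its log2 ratios were thus between 0.22 and 0.51, and the SD among its 10 spots on an array was 0.02 to 0.04. Measured against the control of the other series, its log2 ratio was -0.03 at 15 and 60 nM.

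Both genes of the feedback arm were higher under each agent at the 2 upper doses, but with different courses. PPP1R15A had a log2 signal of 7.74 with vehicle and 9.17, 10.51 and 13.61 at the rising doses of EEDS, and of 7.31 with vehicle and 8.09, 9.48 and 11.83 at those of helveticoside. The fold over the control was 2.69, 6.81 and 58.2 under EEDS and 1.71, 4.52 and 22.9 under helveticoside, each dose above the one before it. TRIB3, a pseudokinase that binds ATF4 and DDIT3 and lowers their activity, had a log2 signal of 14.24 with vehicle and 15.57, 16.24 and 14.93 at the rising doses of EEDS. Its values from vehicle to 60 nM helveticoside were 13.61, 13.63, 15.73 and 15.09. The fold of TRIB3 was 3.99 at the middle and 1.61 at the top dose of EEDS, and 4.35 and 2.79 at those of helveticoside. This gene was thus highest at the middle dose of each agent. Between the vehicle controls TRIB3 differed by a log2 value of -0.63 (helveticoside minus EEDS). Its log2 ratio at 60 nM ran from 0.84 to 1.89 over the alternatives in the processing.

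The effector genes included 1 that was highest at the top dose of each agent and others that were not. SESN2, a sestrin that restrains mTORC1 when amino acids are short, had a log2 signal of 7.64 with vehicle and 9.10, 9.93 and 10.64 at the rising doses of EEDS. With helveticoside it was 6.57 with vehicle and 9.36 and 9.78 at 15 and 60 nM, and its spot at 3.75 nM was an outlier and gave no value. Its fold was 2.75, 4.90 and 8.02 under EEDS and 6.90 and 9.26 at 15 and 60 nM. The helveticoside vehicle was the lower of the 2 controls by 1.07 for this gene, and against the EEDS control the log2 ratio at 60 nM was 2.15 in place of 3.21.

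ASNS, the enzyme that makes asparagine, had a log2 signal of 13.58 with vehicle and 14.95, 17.24 and 16.34 at the rising doses of EEDS. From vehicle to 60 nM helveticoside it had 13.39, 13.58, 16.68 and 16.44. The fold of ASNS was 12.6 at the middle and 6.78 at the top dose of EEDS, and 9.75 and 8.27 at those of helveticoside, so it was highest at the middle dose. CHAC1, which degrades glutathione, had a log2 signal of 8.66 with vehicle and 11.47, 12.23 and 8.45 at the rising doses of EEDS. Its helveticoside values from vehicle to 60 nM were 8.44, 9.38, 12.26 and 10.71. CHAC1 was 7.04-fold higher at 1.25 μg/mL and 11.9-fold at 5 μg/mL, while at 20 μg/mL it was near the level of the control, with a log2 ratio of -0.21 that ran from -0.44 to 0.13 over the alternatives. Under helveticoside its fold was 1.91, 14.1 and 4.81.

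DDIT4 (REDD1), another inhibitor of mTORC1 signaling, stood apart from the other members at the top doses. Its log2 signal from vehicle to the top dose was 13.64, 14.53, 14.19 and 11.51 in the EEDS series and 13.77, 14.18, 14.51 and 12.72 in the helveticoside series. The gene was 1.85-fold and 1.47-fold higher at 1.25 and 5 μg/mL and 4.37-fold lower at 20 μg/mL. Under helveticoside it was 1.33-fold and 1.67-fold higher at 3.75 and 15 nM and 2.08-fold lower at 60 nM. The SD among its 10 spots on an array was 0.03 to 0.05, which covers the error within an array and not that between cultures.

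The step from the middle to the top dose divided the members in a like way under both agents. As log2 of the level at 20 over that at 5 μg/mL EEDS, the difference was 3.49 for ATF3, 3.10 for PPP1R15A, 2.29 for DDIT3, 0.71 for SESN2 and 0.39 for ATF4. It was -0.90 for ASNS, -1.31 for TRIB3, -2.68 for DDIT4 and -3.78 for CHAC1, the last a 13.8-fold lower level. Between 60 and 15 nM helveticoside the difference was 2.34 for PPP1R15A, 2.03 for ATF3, 0.45 for DDIT3 and 0.43 for SESN2, and -0.08 for ATF4, -0.24 for ASNS, -0.64 for TRIB3, -1.55 for CHAC1 and -1.79 for DDIT4. CEBPB was level, with 0.01 and 0.00. ATF3, PPP1R15A, DDIT3 and SESN2 were thus higher at the top than at the middle dose of each agent, and ASNS, TRIB3, CHAC1 and DDIT4 lower. Of all genes, 5.41% and 4.92% were over 2-fold higher at the top than at the middle dose and 5.84% and 5.98% over 2-fold lower. Of the members, 3 were over 2-fold higher and 3 lower in the EEDS series, and 2 and 2 in the helveticoside series. TRIB3, CHAC1 and ASNS were over 2-fold above the control at the middle dose and lower at the top than at the middle dose under each agent, as were 3.22% of all genes under EEDS and 3.62% under helveticoside. Among genes over 2-fold higher at the middle dose, 613 of 1400 under EEDS and 689 of 1351 under helveticoside were lower at the top. Of the members over 2-fold higher there, 3 of 7 were so under each agent, a share near that of all such genes.

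**Figure D2:**
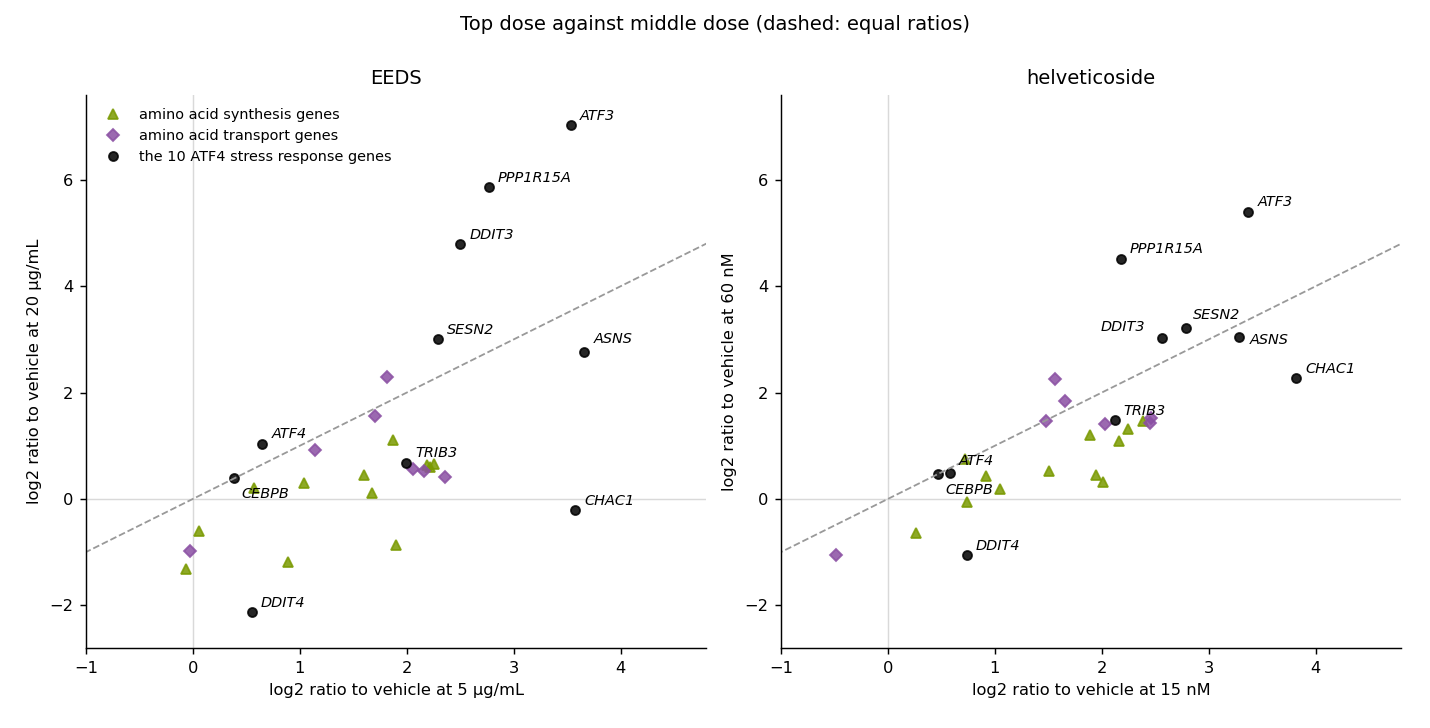
Log2 ratio to the vehicle control at the top dose (vertical axis) against that at the middle dose (horizontal axis), for EEDS (left) and helveticoside (right), with 1 array behind each value. Points above the dashed line are higher at the top dose. ATF3, PPP1R15A, DDIT3 and SESN2 lie above the line in both panels, CHAC1, TRIB3, ASNS and DDIT4 below it, as do 12 and 11 of the 12 amino acid synthesis genes, where of all 19052 genes 8882 and 8468 were lower at the top dose.

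The course over all doses was tested as a slope of the log2 signal on the dose step, numbered 0 for the vehicle control and 1, 2 and 3 for the rising doses. The fit by limma covered all genes and both series, with 4 residual degrees of freedom per gene (3 for SESN2, which was fitted without its missing array). Its p-values measure scatter about a straight line over 8 pooled arrays and not the spread between cultures. The slope was called for 4 of the 10 members under EEDS (7.26% of all genes rose) and for 3 under helveticoside (5.48%), all of them rising, and no member was called as falling (7.85% and 5.8% of all genes fell). ATF3 rose by 2.28 ± 0.23 (SE) per step under EEDS (limma, adjusted p = 0.0133) and by 1.87 ± 0.23 under helveticoside (adjusted p = 0.0186). PPP1R15A rose by 1.89 ± 0.24 (limma, adjusted p = 0.0145) and 1.496 ± 0.24 (adjusted p = 0.0254). SESN2 rose by 0.98 ± 0.14 (limma, adjusted p = 0.0239) and 1.12 ± 0.15 (adjusted p = 0.0257). DDIT3 rose under EEDS by 1.56 ± 0.33 (limma, adjusted p = 0.0356), and its helveticoside slope of 1.23 ± 0.33 did not pass (adjusted p = 0.0711). ATF4 did not pass in either series, with slopes of 0.31 ± 0.08 (limma, adjusted p = 0.0602) and 0.21 ± 0.08 (adjusted p = 0.156). Over the alternatives its adjusted p by limma under EEDS ran from 0.0203 to 0.35, so whether it passes depends on the processing. ASNS, TRIB3, CHAC1, DDIT4 and CEBPB did not pass either, with adjusted p-values by limma of 0.104 to 1.0, and a straight line does not describe a gene that is highest at the middle dose. None of these calls held when the lowest, the middle or the top dose was left out of both series or when each series was fitted alone, and SESN2 could not be fitted in every one of these settings. The difference of the slopes of the agents was under the threshold for no gene by limma (0.0% of all genes). At an unadjusted p under 0.05 it was called for 525 genes and for 0 of the members, and for ATF3 it was 0.41 ± 0.33 per dose step.

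Every probe of the members was examined, since the design holds 4 probes for ATF3, 2 for CHAC1 and 1 for each of the other 8 genes. Of the ATF3 probes, 2 rose alike. Probe A_23_P34915, designed on NM_001040619, is the one described above, and probe A_24_P33895, on the same transcript, was not well above background on both vehicle controls and at 3.75 nM. The second probe had a log2 signal of 4.31, 5.96, 7.89 and 11.24 from vehicle to 20 μg/mL EEDS and 2.89, 3.37, 7.93 and 8.93 from vehicle to 60 nM helveticoside. By bounds, its signal at the top dose exceeded the control at least 103-fold under EEDS and at least 10.4-fold under helveticoside. Probe A_33_P3214105, on NM_001674, had a log2 signal of 7.15, 7.65, 8.52 and 11.71 in the EEDS series and 7.92, 8.37, 8.78 and 10.52 in the helveticoside series. Its log2 ratio at the top doses was 4.56 and 2.59, below the 7.02 and 5.40 of the first probe. Probe A_33_P3214096, again on NM_001040619, was less than 2-fold from its control at every dose, at 7.87, 7.61, 7.78 and 8.79 in the EEDS series and 7.63, 8.40, 8.41 and 7.84 in the helveticoside series. Its fold was 1.90 at 20 μg/mL, and 1.71, 1.72 and 1.16 at the rising doses of helveticoside. In the limma fit over 34108 probes, the EEDS slope was called for 3 of the 4 ATF3 probes (5.27% of all probes rose) and the helveticoside slope for 2 (3.57%). The slopes of A_33_P3214096 were 0.29 ± 0.18 (limma, adjusted p = 0.366) and 0.06 ± 0.18 (adjusted p = 0.934). With the mean of the 4 probes in place of the brightest, the log2 ratio of ATF3 was 4.86 at 20 μg/mL and 3.56 at 60 nM.

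The 2 CHAC1 probes showed the same course. The dimmer of them, A_33_P3376965, was not well above background on the vehicle controls, at 20 μg/mL and at 3.75 nM. Its log2 signal was 4.23, 7.20, 7.85 and 4.69 from vehicle to 20 μg/mL and 3.70, 4.39, 8.03 and 6.77 from vehicle to 60 nM. By bounds, this probe exceeded its control at least 9.82-fold at the middle dose of EEDS and at least 5.56-fold at that of helveticoside, and both probes were highest at the middle dose.

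**Figure D3:**
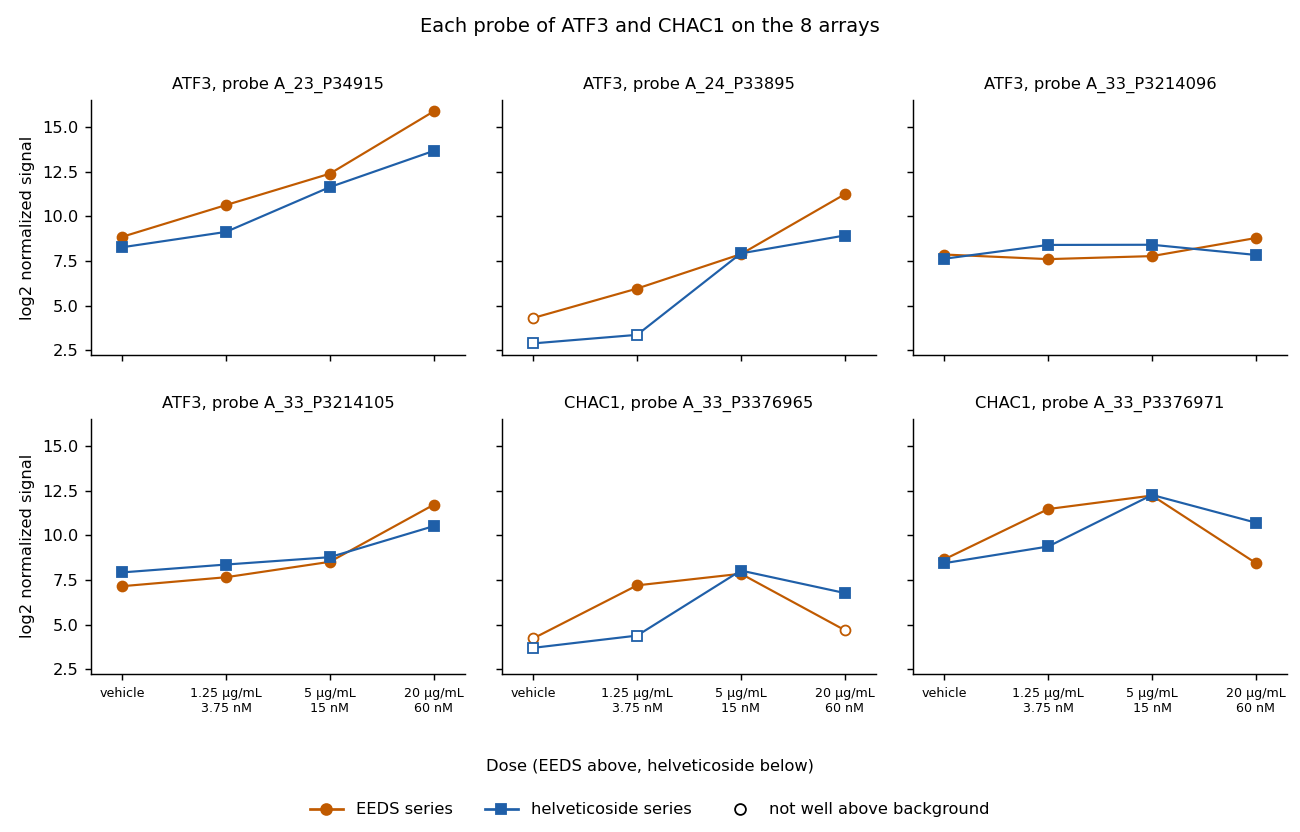
Log2 normalized signal (vertical axis) of the 4 ATF3 probes and the 2 CHAC1 probes by dose (horizontal axis) in the EEDS series (circles) and the helveticoside series (squares), 1 array per point, open symbols not well above background. Of the ATF3 probes, 3 were higher at each rising dose, to different heights, save that A_24_P33895 was not well above background with vehicle and at 3.75 nM, where no order can be read, and A_33_P3214096 stayed between 7.61 and 8.79. Both CHAC1 probes peaked at 5 μg/mL and at 15 nM.

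Genes whose pattern was most like that of ATF3 or ATF4 were ranked by Pearson's r of the log2 signal over the 8 arrays, among 11494 genes well above background on all of them. The 8 points share 2 controls and 1 order of doses, so r is given as a description. The 5 genes most like ATF3 were BACH1 (r = 0.997), DCP1A, CRTC2, PRR4 and TICAM1, the last with r = 0.995. BACH1, a transcriptional repressor of antioxidant genes, had log2 ratios of 0.46, 0.90 and 1.96 under EEDS and 0.28, 0.84 and 1.34 under helveticoside, smaller than those of ATF3 at every dose. The 5 genes most like ATF4 were CSNK1A1 (r = 0.977), IFRD1, ZNF224, BCAM and MOB2 (r = 0.974). IFRD1 had log2 ratios larger than those of ATF4 at the doses other than 3.75 nM, where it had -0.24, with 1.92, 2.43 and 2.82 under EEDS and 1.82 and 1.43 at 15 and 60 nM.

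The wider pathway was read from 8 lists of genes, of which 86 of 89 were measured, PPP1R15B being in 2 of the lists. In these lists a gene is said to rise, fall or pass by its slope on the dose step. Each adjusted p belongs to that slope and not to the single-dose ratio beside it, which was not tested. The limits given for the slopes of the members hold for these slopes too. Of the 4 eIF2 kinases, none rose (7.26% of all genes under EEDS and 5.48% under helveticoside). Under EEDS 1 fell (7.85% of all genes) and under helveticoside 2 did (5.8%). The median log2 ratio of the kinases was -0.58 to -0.01 over the 6 treated arrays. EIF2AK1 (HRI), the kinase that senses heme, fell under both agents, with log2 ratios of -1.07 at 20 μg/mL and -0.91 at 60 nM (limma, adjusted p = 0.0231 and 0.0341). EIF2AK2 (PKR) fell under helveticoside, with -0.91 at 60 nM (limma, adjusted p = 0.0256), and had -0.37 at 20 μg/mL (adjusted p = 0.11). EIF2AK3 (PERK), the kinase of the endoplasmic reticulum, did not pass and had 0.81 and -0.02 at the top doses.

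Of 11 measured subunits and modulators of eIF2 and its exchange factor eIF2B, 5 rose and 3 fell under EEDS, and 3 rose and 3 fell under helveticoside. As shares of all genes, 7.26% rose and 7.85% fell under EEDS, and 5.48% and 5.8% under helveticoside. The median log2 ratio of the 11 was 0.39 and 0.45 at the top doses. PPP1R15B, the constitutive counterpart of PPP1R15A, rose under both agents, to log2 ratios of 1.79 and 1.41 at the top doses (limma, adjusted p = 0.018 and 0.0273), where PPP1R15A had 5.86 and 4.52. EIF2B2 and EIF2B5 also rose under both, while EIF2B1 and EIF2B3 fell under both, so subunits of 1 complex moved in opposite directions. EIF2B3 had log2 ratios of -2.25 and -2.35 at the top doses. IMPACT, an inhibitor of the kinase GCN2, fell under both agents, with -2.41 at 20 μg/mL and a level at least 4.46-fold lower at 60 nM, where it was not well above background.

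Among 12 family relatives of the members, 2 rose under each agent (PPP1R15B and SESN1), where 7.26% of all genes rose under EEDS and 5.48% under helveticoside. Under EEDS 3 fell (CEBPA, CEBPD and DDIT4L, 7.85% of all genes) and under helveticoside 2 did (CEBPA and DDIT4L, 5.8%). CEBPA, which favors differentiation, had log2 ratios of -1.75 and -1.48 at the top doses (limma, adjusted p = 0.0207 and 0.0324), where CEBPB had 0.40 and 0.47. DDIT4L, the paralog of DDIT4, had -3.23 at 20 μg/mL and was at least 14.2-fold lower at 60 nM. The median of the list was between -0.25 and -0.03 over the 6 treated arrays.

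Most genes of amino acid synthesis were, like ASNS, highest at the middle dose. The exceptions were CTH and SHMT2 under EEDS, which were highest at 1.25 μg/mL, and ALDH18A1 under helveticoside, which was highest at 60 nM. Of the 12 genes, which serve serine, proline, cysteine, alanine and one-carbon metabolism and include the mitochondrial PEP carboxykinase PCK2, 8 were over 2-fold higher at 5 μg/mL (7.35% of all genes) and 8 at 15 nM (7.09%). In the EEDS series these were PSAT1, PHGDH, MTHFD2, ALDH1L2, PYCR1, CBS, GPT2 and PCK2, and in the helveticoside series PSPH stood in place of PYCR1. Each of them was lower at the top than at the middle dose of that series. Of all genes over 2-fold higher at the middle dose, 613 of 1400 under EEDS and 689 of 1351 under helveticoside were lower at the top. The 8 were picked by their value at the middle dose, so this is a description only. The median log2 ratio was 0.38, 1.64 and 0.25 at the rising doses of EEDS and 0.05, 1.70 and 0.48 at those of helveticoside. PHGDH, which opens serine synthesis, had log2 ratios of 0.41, 2.19 and 0.64 under EEDS and 0.06, 2.39 and 1.46 under helveticoside. CBS, which makes cystathionine, had 0.26, 2.26 and 0.65 under EEDS and -0.42, 2.25 and 1.31 under helveticoside. SHMT2, the mitochondrial serine hydroxymethyltransferase, was not among the 8, with -0.06 and -1.32 at the 2 upper doses of EEDS and 0.26 and -0.65 at those of helveticoside. No gene of this list passed the test of a straight slope. Of all genes, 7.26% rose and 7.85% fell under EEDS, and 5.48% and 5.8% under helveticoside.

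Of 7 measured amino acid transporters, 6 were over 2-fold higher at 5 μg/mL (7.35% of all genes) and 6 at 15 nM (7.09%). The median log2 ratio of the list was 0.80, 1.81 and 0.56 at the rising doses of EEDS and -0.08, 1.65 and 1.47 at those of helveticoside. SLC38A2 (SNAT2), a carrier of small neutral amino acids, rose under both agents, to log2 ratios of 2.28 and 2.26 at the top doses (limma, adjusted p = 0.0229 and 0.0253). No other slope of the list was called, where 7.26% of all genes rose under EEDS and 5.48% under helveticoside. SLC1A4, another neutral amino acid carrier, had 2.36 and 0.41 at the 2 upper doses of EEDS and 2.46 and 1.51 at those of helveticoside. SLC7A1 did not pass, with 1.55 and 1.85 at the top doses (limma, adjusted p = 0.0904 and 0.0604). SLC7A11, the cystine transporter, was the one transporter below its control at the middle dose, at -0.03 and -0.49.

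Of 11 measured tRNA-charging genes, 4 were over 2-fold higher at 5 μg/mL (7.35% of all genes) and 5 at 15 nM (7.09%). No slope passed. The median log2 ratio of these genes was 0.29, 0.73 and 0.51 under EEDS and -0.19, 0.66 and 0.71 under helveticoside. GARS1 and YARS1, which charge the tRNAs of glycine and tyrosine, were among them, with 1.43 and 1.38 at 5 μg/mL and 1.46 and 1.82 at 15 nM, and stayed at 1.29 and 1.28 at 20 μg/mL and 1.57 and 1.85 at 60 nM. MARS1 had 0.91 and 0.55 at 5 and 20 μg/mL and 1.17 and 1.21 at 15 and 60 nM. The CARE letters were found for 7 of the 11 genes of this list with a window (TARS1, GARS1 and MARS1 among them). In the other lists, 4 of 7 amino acid transporters, 3 of 10 family relatives and 2 of 13 other targets with a window held them. So did 1 of 11 eIF2 and eIF2B genes, 0 of 7 amino acid synthesis genes, 0 of 3 kinases and 0 of 14 ATF6 and XBP1 genes. Of all genes with a window, 4.45% held them. These sets are not those measured on the arrays, since CARS1 and SLC3A2, both with the letters, were not measured.

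Of 16 other genes reported as ATF4 or CHOP targets, 4 rose and 1 fell, and they were the same 5 under each agent. In comparison, 7.26% of all genes rose and 7.85% fell under EEDS, and 5.48% and 5.8% under helveticoside. The list of 16 had a median log2 ratio of 1.19 at 20 μg/mL and 1.01 at 60 nM. BBC3 (PUMA), which promotes apoptosis, rose to log2 ratios of 3.62 and 2.87 at the top doses (limma, adjusted p = 0.00772 and 0.015). TNFRSF10B, a death receptor, rose to 2.64 and 2.21 (limma, adjusted p = 0.0131 and 0.0165), and the stress cytokine GDF15 to 2.76 and 2.39 (adjusted p = 0.0249 and 0.0317). MAP1LC3B, a protein of autophagosomes, also rose, and BCL2L11 (BIM), another promoter of apoptosis, fell, to -1.89 and -1.86 (limma, adjusted p = 0.0322 and 0.0334). STC2, a secreted glycoprotein, was not well above background on either control, and by bounds it exceeded the control at least 21.1-fold and 7.35-fold at the 2 upper doses of EEDS and at least 7.38-fold and 5.59-fold at those of helveticoside. NUPR1, a stress-induced chromatin protein, did not pass, with log2 ratios of 3.63 and 2.47 at the 2 upper doses of EEDS and 3.48 and 2.44 at those of helveticoside. VLDLR did not pass either, with 1.23 and 2.02 at the top doses.

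The ATF6 and XBP1 genes, which report the other branches of the endoplasmic reticulum stress response, showed no common direction. At 20 μg/mL, 2 of 14 were over 2-fold higher (13.3% of all genes) and 3 lower (14.5%). At 60 nM 0 were higher (10.8% of all genes) and 1 lower (12.8%). Of the 14 genes, 1 rose under each agent, DNAJB9, to log2 ratios of 1.39 and 0.86 at the top doses (limma, adjusted p = 0.0167 and 0.0377), and none fell. Of all genes, 7.26% rose and 7.85% fell under EEDS, and 5.48% and 5.8% under helveticoside. The chaperone HSPA5 (BiP) had -1.31 and -1.09 at the top doses (limma, adjusted p = 0.107 and 0.131), and ATF6 had 1.18 and 0.91 (adjusted p = 0.0767 and 0.15). MANF, SDF2L1 and CRELD2 did not pass and were below the control at every dose, with log2 ratios of -1.04, -0.96 and -0.82 at 20 μg/mL and -0.93, -0.88 and -0.80 at 60 nM. The median of the list was between -0.18 and 0.16 over the treated arrays.

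**Figure D4:**
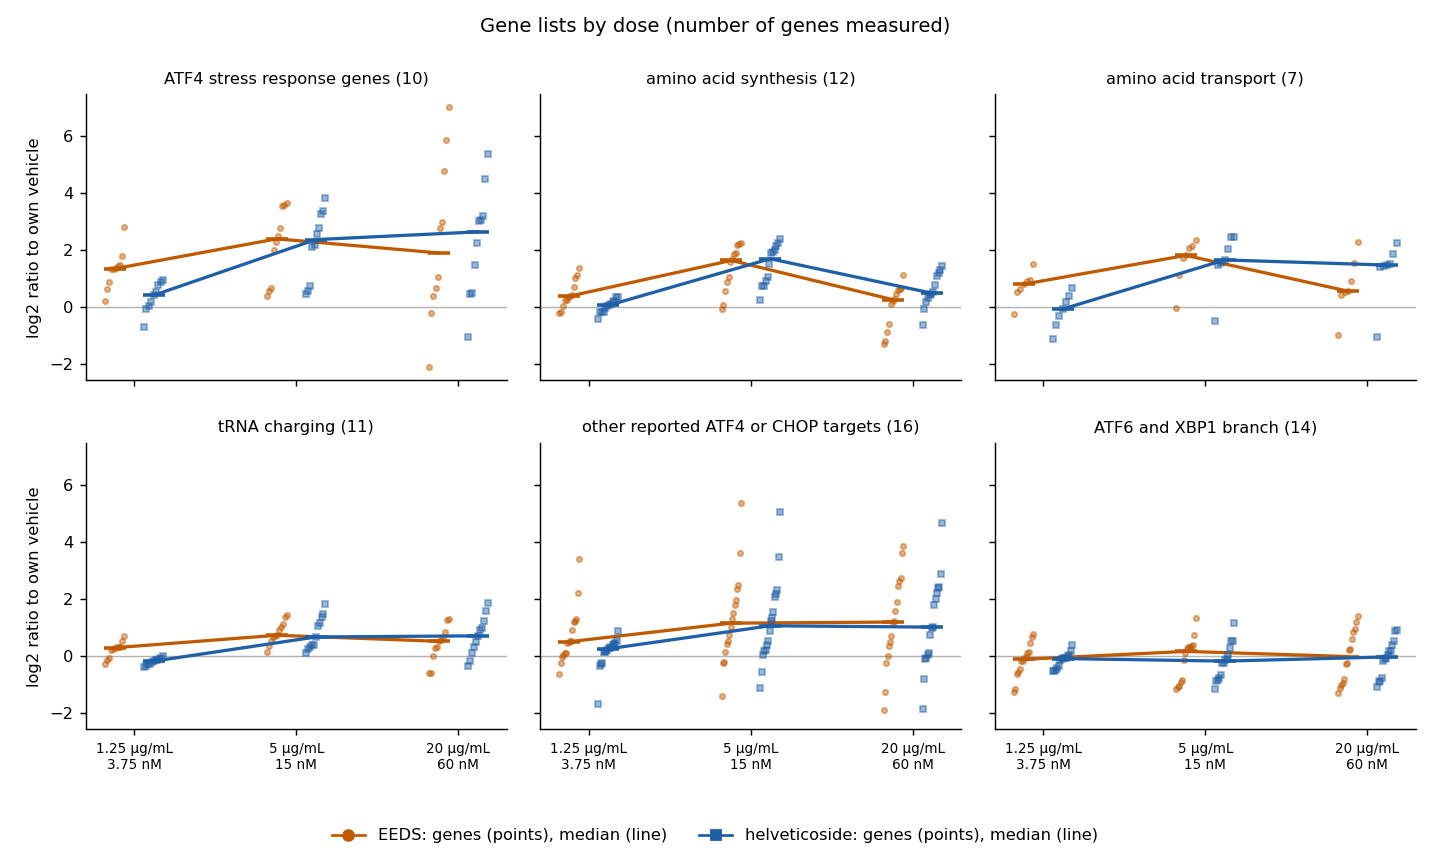
Log2 ratio to the vehicle control of the series (vertical axis) at the 3 doses (horizontal axis) for EEDS (circles) and helveticoside (squares), 1 panel per list. Points are single genes on 1 array, including ratios for which an array was not well above background, and lines join the medians. The highest points among the other targets at the middle dose are STC2. Its control was not well above background, and the bounds were log2 ratios of at least 4.40 and 2.88. The median of the amino acid synthesis genes was 1.64 at 5 μg/mL and 1.70 at 15 nM and 0.25 and 0.48 at the top doses, whereas that of the ATF6 and XBP1 genes was between -0.18 and 0.16, with genes on both sides.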

How the data were processed

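Per the labels and file headers, the authors deposited scanner intensity values for each spot of 8 arrays, and a table of processed intensity values that from its numbers holds the median signal minus local background, quantile-normalized within each series; it served as an alternative only. The processed signal of the scanner software, already background-corrected, was averaged over each probe's spots, leaving out control and outlier spots, quantile-normalized over the 8 arrays and put on the log2 scale. Probes were matched to GRCh38.p14 gene names by accession, and the brightest probe stood for a gene. Where 1 array was not well above background, a bound against the lowest signal well above background is given as "at least". Slopes on the dose step were fitted with limma 3.58.1 (R 4.3.3, statmod 1.5.0; trend and robust estimation), with an intercept and slope per series and Benjamini-Hochberg adjustment over all genes at 0.05. The fit was tested on simulated data.

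The members and gene lists were chosen with earlier results of these data known. Some marker genes are not reported here. Named beyond the members are the 3 genes of each list with the largest change at a top dose, taken from genes that both arrays measured well above background, any list gene over 4-fold changed there, and the 5 genes most correlated with ATF3 or ATF4. Other genes named with values, such as EIF2B1, SLC7A11, MAP1LC3B and BCL2L11, were added after their values were seen. Alternatives were 75th percentile scaling, the signal as scanned, normexp with an offset of 50, the deposited processed table, other filters and probe rules, the other control, other fold thresholds and other fits. Python 3.11.15, numpy 2.4.6 and pandas 2.3.3 were used otherwise.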

Additional observations from a re-analysis of the deposited data

Results flagged for a closer look

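In 3 places a member lay on opposite sides of its control under the 2 agents at the same dose step. DDIT3 had a log2 ratio of 1.32 at 1.25 μg/mL EEDS and -0.69 at 3.75 nM helveticoside, where it was not well above background. ATF4 had 0.63 at 1.25 μg/mL EEDS and -0.09 at 3.75 nM helveticoside, and CHAC1 had -0.21 at 20 μg/mL EEDS and 2.27 at 60 nM helveticoside. The side of the control was not stable over the alternatives for ATF4 at 3.75 nM (-0.24 to 0.16) and for CHAC1 at 20 μg/mL (-0.44 to 0.13). Each value is from 1 array, the doses are not matched, and none of these differences was tested.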

How the results depend on the processing

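With 1 array per dose, precision is limited by the few arrays, and no alternative reversed a called value. At a 4-fold threshold the members higher at 1.25 μg/mL EEDS numbered 1 in place of 7, and at a 1.5-fold threshold those higher at 3.75 nM helveticoside numbered 3 in place of 0. The shares of all genes, 4.2% and 3.37%, are for the 2-fold threshold. These counts thus show only how the number depends on the threshold. The EEDS slope was called for 4 members, for 4 or 5 under the other normalizations, filters and probe rules, and for 0 without the lowest, the middle or the top dose and with the 4 arrays of the series alone. ATF4 and ASNS each passed under EEDS in some alternative, with lowest adjusted p-values by limma of 0.0203 and 0.0417. The helveticoside slope was called for 3 members, for 5 with 75th percentile scaling, the signal as scanned, normexp or the authors' processed table, which added DDIT3 and ASNS, and for 0 without the lowest, the middle or the top dose and with the series alone. The causes were not tested, and the fits without a dose or with the series alone also rest on fewer arrays. Under scaling to the 75th percentile the median of all genes was a log2 ratio of -0.20, -0.21 and -0.36 under EEDS and 0.14, -0.12 and -0.18 under helveticoside. Of the members' log2 ratios under alternatives, 22 moved by more than 0.65, the SD over all genes of the difference between the vehicle controls, and 444 did not. The amino acid synthesis genes over 2-fold higher numbered 7 to 9 at each middle dose under 8 alternatives chosen after seeing the data. In the main processing 7.35% of all genes were so at 5 μg/mL and 7.09% at 15 nM. No paired analysis was possible because each group has 1 array.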
